A study of Saccharomyces cerevisiae with 54 samples.

Results

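The genes described here are the 7 that encode subunits found only in RNA polymerase I, together with RRN3, the initiation factor that works with this enzyme. They were chosen by what they encode and not by their measured values, and they make up 8 of the 6571 genes in the table. The subunit genes are RPA190 (YOR341W), RPA135 (YPR010C), RPA49 (YNL248C), RPA34 (YJL148W), RPA43 (YOR340C), RPA14 (YDR156W) and RPA12 (YJR063W), and RRN3 is YKL125W. All 8 passed the filters on low counts used for the comparisons between the strains and within them.

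RNA polymerase I is the nuclear enzyme that makes the large precursor of ribosomal RNA, and in growing yeast it accounts for most of the cell's RNA synthesis. Rpa190 and Rpa135 form its catalytic core, Rpa49 and Rpa34 form a heterodimer that takes part in initiation and elongation, Rpa43 and Rpa14 form a stalk, and Rpa12 acts in cleavage of the nascent RNA and in termination. Rrn3 binds the polymerase through the stalk and brings it to the promoter of the ribosomal RNA genes. In yeast the output of this system falls when nutrients run short, as they do in the medium that induces meiosis and spore formation.

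Both strains are diploids of the laboratory yeast S288c. The MMTT strain carries the MKT1(89G) and TAO3(4477C) alleles, brought in by allele replacement, and the SS strain is the wildtype with the S288c allele at both genes. The MMTT diploid came from crossing haploid spores that carried both alleles, so it represents 1 strain construction. Sporulation followed growth in the media YPD and YPA. It was induced by potassium acetate (1%), to which amino acids had been added, and RNA was taken at 0 h, then after 30 min and 45 min, next at 1 h 10 min, again at 1 h 40 min, then at 2 h 30 min, later at 3 h 50 min, and last at 5 h 40 min, followed by 8 h 30 min. Each of these 9 times had 3 replicates per strain. The labels do not say that the replicates came from separate cultures, so the p-values measure the spread between these samples, which may be technical. The values below come from the 49 libraries shown in the study's own clustering of these samples, 24 of MMTT and 25 of SS, and 5 of the 18 groups then hold 2 libraries (SS at 0 h and 30 min, and MMTT at 45 min, at 2 h 30 min and also at 5 h 40 min).

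Total counts ranged from 1455002 to 5793502 in these 49 libraries, with a median of 3641591, and the 10 genes with the most reads took 6.83% to 12.3% of them. Marker genes of meiosis and sporulation (IME1, IME2, SPO11, NDT80 and SPS4) separated the strains late in the series. Their summed level was 8090 to 13500 CPM (read counts scaled to the size of each library) in MMTT at 8 h 30 min, against 472 to 525 CPM in SS. All 5 were called higher in MMTT, beside 20.3% of all genes. The CPM in this paragraph are without TMM factors, and those of the 8 genes below include them. At 0 h the sum was 1040 to 1330 CPM in MMTT and 765 to 1020 CPM in SS, and 0 of the 5 were called. One MMTT library at 2 h 30 min stood apart with 3960 CPM, against 807 CPM in the other. Among the mating type genes, the 3 haploid-specific genes summed to 31.2 to 75.5 CPM in MMTT and 30.6 to 54.2 CPM in SS. The 4 a-specific genes summed to 18 to 52.3 CPM and 19.7 to 47.1 CPM, and the 2 alpha-specific genes to 17.0 to 44.0 CPM and 11.4 to 27.1 CPM. MFA2 was at 0 in at least 1 library of each strain, while the median of STE5 was 16.9 CPM in MMTT and 25.5 CPM in SS. Of these 9 genes MFA2, MF(ALPHA)1 and FUS3 were called higher in MMTT at 30 min, beside 18.1% of all genes. These values are given because the cultures hold a mixture of cells. The part of the sporulating cells in the values below was not tested. In RNA from whole cultures, fewer cells of a kind and less of an mRNA per cell cannot be told apart.

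The stretches of DNA in front of these genes share short sequences, and those of the 4 genes with the most calls between the strains are shown here with that of RPA12, which lacks them. The sequence is that of the RefSeq R64 genome of S288c, the background of both strains, and covers the 250 bases before the start codon, 5′ to 3′ on the strand of the gene. The positions are chrXV:960737-960986, plus strand for RPA190, chrXVI:581197-581446, minus strand for RPA135, chrXIV:182609-182858, minus strand for RPA49, chrXV:960183-960432, minus strand for RPA43 and chrX:554945-555194, plus strand for RPA12. Capitals mark the core of the PAC element (GATGAG, or CTCATC where it lies on the other strand) and the core of the RRPE element (AAAATTTT). In RPA49 they mark the full PAC element (GCGATGAG).
RPA190: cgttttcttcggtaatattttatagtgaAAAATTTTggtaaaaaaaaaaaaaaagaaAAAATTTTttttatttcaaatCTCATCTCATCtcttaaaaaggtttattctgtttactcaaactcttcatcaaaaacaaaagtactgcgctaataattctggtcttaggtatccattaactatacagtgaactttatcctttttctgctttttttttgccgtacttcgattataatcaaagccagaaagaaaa
RPA135: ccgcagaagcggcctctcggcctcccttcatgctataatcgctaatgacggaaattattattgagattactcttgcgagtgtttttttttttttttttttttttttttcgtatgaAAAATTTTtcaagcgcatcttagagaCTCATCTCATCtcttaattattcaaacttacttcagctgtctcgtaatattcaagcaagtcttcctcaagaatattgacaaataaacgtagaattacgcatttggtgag
RPA49: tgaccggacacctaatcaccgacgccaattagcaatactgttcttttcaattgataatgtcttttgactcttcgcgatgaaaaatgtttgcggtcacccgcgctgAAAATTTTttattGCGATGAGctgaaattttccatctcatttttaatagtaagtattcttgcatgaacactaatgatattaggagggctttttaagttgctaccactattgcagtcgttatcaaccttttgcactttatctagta
RPA43: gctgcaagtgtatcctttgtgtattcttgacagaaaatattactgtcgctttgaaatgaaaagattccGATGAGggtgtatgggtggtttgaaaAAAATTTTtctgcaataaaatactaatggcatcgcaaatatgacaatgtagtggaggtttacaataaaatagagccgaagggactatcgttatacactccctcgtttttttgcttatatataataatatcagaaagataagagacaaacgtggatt
RPA12: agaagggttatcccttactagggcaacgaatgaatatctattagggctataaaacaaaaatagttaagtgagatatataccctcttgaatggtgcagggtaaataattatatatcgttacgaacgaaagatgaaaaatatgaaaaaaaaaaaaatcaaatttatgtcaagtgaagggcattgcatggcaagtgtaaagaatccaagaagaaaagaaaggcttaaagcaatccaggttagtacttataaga
PAC was named after RNA polymerases A and C, the older names of RNA polymerases I and III. In yeast it is bound by the repressors Dot6 and Tod6, and RRPE by Stb3. The PAC core was found on either strand in 7 of the 8 promoters and in 17.0% of all 6020 promoters of the same length. The RRPE core, which reads the same on both strands, was found in the same 7 genes and in 8.62% of all promoters. The full PAC element was found in 1 of the 8 and in 3.82% of all. Of the 10 subunit genes particular to RNA polymerase III, 8 had the PAC core, 5 the RRPE core and 3 the full PAC element. In RPA190 and RPA135 the PAC core occurs in a pair of overlapping copies. A match is a run of letters and does not show that a protein binds there. RPA14, which has both cores, was called between the strains at 0 of the 9 time points. RPA12, which has neither, was called at 1. Whether the cores bear on these calls was not tested.

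**Figure D1:**
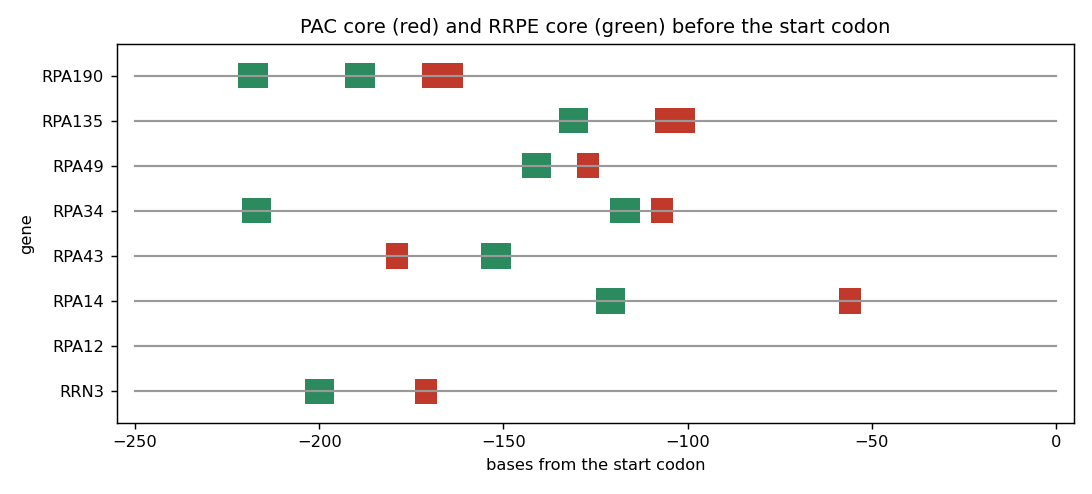
Positions of the PAC core (red) and the RRPE core (green) in the 250 bases before the start codon of each gene, in bases from the start codon. The PAC core begins between 182 bases (RPA43) and 59 bases (RPA14) before the start codon in 7 genes, and RPA12 has neither element.

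RPA190 and RPA43 lie back to back on chromosome XV, with 804 bases between their start codons (960183 to 960986), so the DNA that precedes them is shared. The genes themselves do not overlap. The coding sequence of RPA190 (960987 to 965981, plus strand) is 4995 bases long and that of RPA43 (959202 to 960182, minus strand) 981 bases. RPA135 lies on chromosome XVI (577585 to 581196, minus strand), RPA49 on XIV (181361 to 182608, minus strand), RPA34 on X (140437 to 141138, plus strand), RPA12 also on X (555195 to 555572, plus strand), RPA14 on IV (769525 to 769938, plus strand) and RRN3 on XI (208247 to 210130, plus strand). RPA14 overlaps the reading frame YDR157W on the same strand, so its counts may have been split or dropped there and are uncertain. None of the 8 coding sequences has a near-identical copy in the genome.

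Per length of coding sequence, RPA14 mRNA was the most abundant of the 8 and RPA190 mRNA the least in both strains. The mean over libraries and time points was 74.9 RPKM (CPM per kilobase of coding sequence) for RPA14 in MMTT and 89.0 RPKM in SS. It was 12.4 RPKM for RPA190 in MMTT and 17.9 RPKM in SS. Between these came RRN3 (42.7 RPKM in MMTT and 55.3 in SS), RPA34 (40.7 and 55.6), RPA12 (22.8 and 34.1), RPA43 (20.1 and 28.8), RPA49 (15.8 and 21.6) and RPA135 (15.5 and 19.7). The ranges of neighbours in this order overlapped over the libraries in both strains, and RPA34 and RRN3 were nearly level in SS. By this measure the mRNAs of subunits that enter the enzyme together lay at unequal levels, with RPA14 ahead of its partner in the stalk, RPA43, and RPA34 ahead of its partner RPA49. The lengths leave out untranslated ends, and the counts of RPA14 are uncertain, so this order is approximate.

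**Figure D2:**
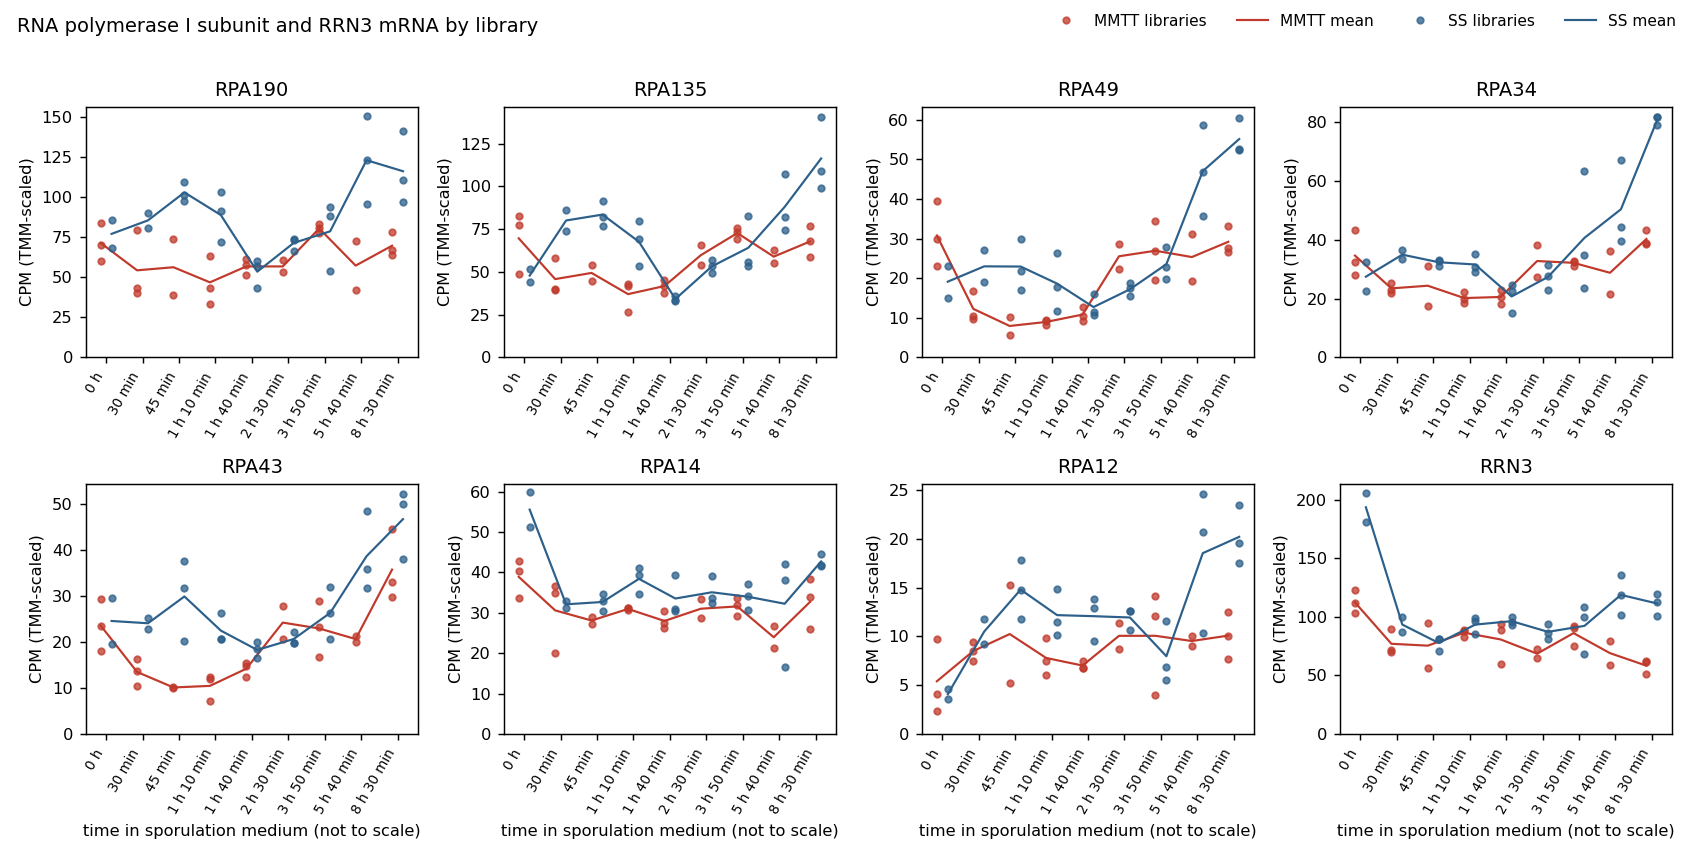
CPM of each gene in each of the 49 libraries (points) and the mean of each group (lines) for MMTT (red) and SS (blue) at the 9 time points, which are evenly spaced and not to scale. RPA190, RPA135, RPA49, RPA34 and RPA43 are lower in MMTT than in SS on average early and late, with no call at 1 h 40 min, and RRN3 starts at 112 CPM on average in MMTT and 193 CPM in SS.

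The first comparison set MMTT against SS at each time point, to see where the levels of these mRNAs differed between the strains. All calls among the 8 genes were lower in MMTT (24 of the 72 tests of a gene at a time point), and they fell into an early and a late window. In the early window 3 of the 8 genes were called lower at 30 min, where 21.8% of all genes tested were, 4 of 8 at 45 min (12.0% of all genes) and 5 of 8 at 1 h 10 min (18%). No member was called at 1 h 40 min (9.85% of all genes lower), 2 h 30 min (15.8%) or 3 h 50 min (10.7%), where 0 of 8 also had an unadjusted p under 0.05 and DESeq2 called 0. In the late window 5 of 8 were called lower at 5 h 40 min (11.9% of all genes) and 6 of 8 at 8 h 30 min (21.9%). At 0 h only RRN3 was called lower, beside 7.63% of all genes. In both windows the share of the 8 genes lay above that of all genes. The median log2 fold change of the 8 was -0.76 at 1 h 10 min, -0.04 by 3 h 50 min and -0.85 in the last samples, and the median of all genes stayed between -0.06 and 0.03.

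Calls at several time points rested on single libraries. Without replicate 2 of MMTT at 5 h 40 min 0 of 8 were called there, without replicate 3 of SS at 5 h 40 min 2 were, without replicate 2 of SS at 30 min 0 were called at 30 min and without replicate 1 of MMTT at 30 min 1 was, without replicate 3 of SS at 45 min 2 were called at 45 min, without replicate 3 of SS at 1 h 10 min 3 were called at 1 h 10 min, and without replicate 3 of SS at 0 h RRN3 was not called at 0 h. At 0 h RPA14 was called lower as well without replicate 1 of SS at 5 h 40 min, and RPA135 was called higher (0.74) without replicate 2 of MMTT at 0 h. In the last samples at least 4 of 8 were called whichever library was left out. When each time point was fitted alone, 15 of the 72 tests were called and none at 45 min or 5 h 40 min, where MMTT has 2 libraries.

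**Figure D3:**
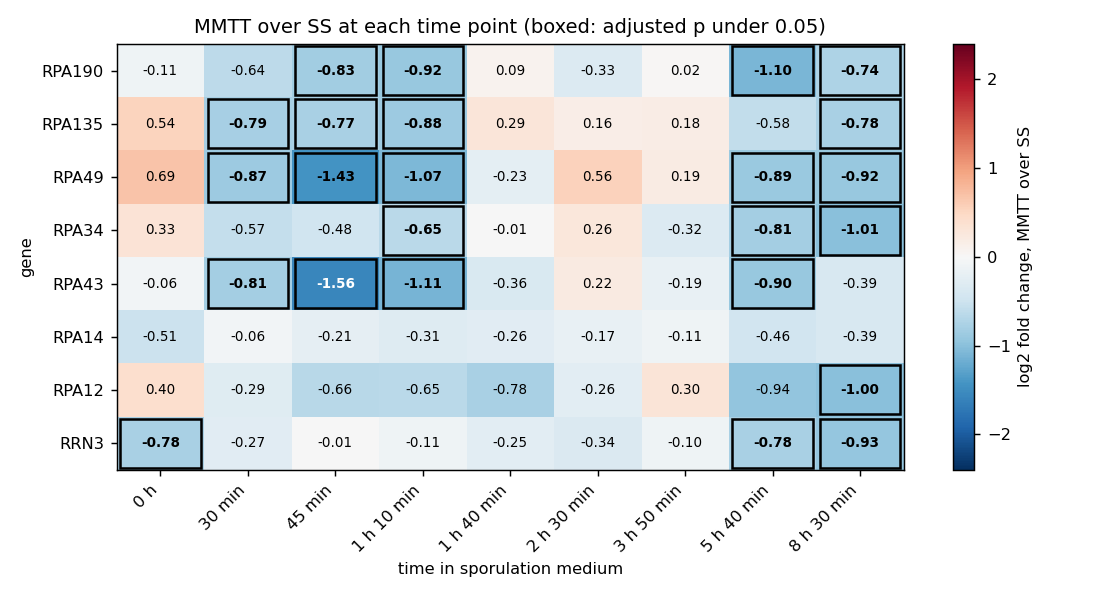
Log2 fold change of MMTT over SS for each gene (rows) at each time point (columns), with a box around values with an adjusted p under 0.05. The boxed values are all negative, lie at 30 min to 1 h 10 min or from 5 h 40 min on apart from RRN3 at 0 h, and reach -1.56 for RPA43 at 45 min.

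The catalytic subunits were lower in MMTT in both windows. RPA190 had 43.6, 33.6 and 63.4 CPM in MMTT at 1 h 10 min, against 72.2, 91.2 and 103 CPM in SS. Every MMTT library lay below every SS library, and the log2 fold change was -0.92 ± 0.24 (SE, adjusted p = 0.0036). RPA190 was also called at 45 min (-0.83 ± 0.28), where the MMTT libraries were far apart at 38.7 and 73.9 CPM, against 98.0, 102 and 109 CPM in SS, and where the call was lost without the lower of them or without the highest SS library. At 5 h 40 min it had 72.8 and 41.9 CPM in MMTT and 95.9, 123 and 151 CPM in SS (-1.10 ± 0.28, adjusted p = 0.0045), a call that ended without the lower MMTT library. The last samples, at 8 h 30 min, had 63.7, 78.6 and 67.1 CPM in MMTT and 111, 141 and 97 CPM in SS (-0.74 ± 0.24, adjusted p = 0.012), again with no overlap, and the call ended without replicate 1 of MMTT or replicate 2 of SS at that time. At 1 h 40 min the strains overlapped, with 51.6, 61.3 and 57.7 CPM in MMTT and 60.1, 43.3 and 57.2 CPM in SS. At 2 h 30 min both MMTT libraries, at 60.5 and 53.1 CPM, lay below the SS libraries, at 66.7, 73.6 and 74.3 CPM, without a call.

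RPA135, which encodes the other large subunit, was called in both windows too. It had 26.3, 43.2 and 41.5 CPM in MMTT at 1 h 10 min, against 53.5, 69.5 and 80.1 CPM in SS (log2 fold change -0.88 ± 0.20, adjusted p = 0.0008). It was called earlier too, at 30 min (-0.79 ± 0.22) and 45 min (-0.77 ± 0.23). At 1 h 40 min MMTT and SS lay close, at 42.0, 45.3 and 37.9 CPM and 33.0, 35.7 and 33.8 CPM, with MMTT the higher strain but no call. By 8 h 30 min MMTT had 77.0, 67.9 and 58.6 CPM and SS 109, 141 and 99.0 CPM (-0.78 ± 0.19, adjusted p = 0.0012). The difference at 5 h 40 min (-0.58 ± 0.22, adjusted p = 0.053) was not called. At 0 h the order was the other way round without a call: 77.4, 48.8 and 82.8 CPM in MMTT against 51.6 and 44.1 CPM in SS.

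The heterodimer subunits differed most for RPA49. RPA49 mRNA stood at 5.71 and 10.1 CPM in MMTT at 45 min, against 21.8, 17.1 and 29.8 CPM in SS, with 9 and 54 reads behind the MMTT values. The log2 fold change was -1.43 ± 0.35 (adjusted p = 0.0024). At 1 h 10 min the MMTT libraries were tight at 8.10, 9.26 and 9.47 CPM and the SS libraries spread over 11.8, 17.7 and 26.4 CPM (-1.07 ± 0.29, adjusted p = 0.0043), and without the highest SS library the call was lost. RPA49 was also called at 30 min (-0.87 ± 0.31), a call that was lost with all 54 libraries, with library totals in place of TMM factors, when the time point was fitted alone and without any 1 of 3 libraries of that time. Its call at 5 h 40 min (-0.89 ± 0.30) was lost with the replicate block, when the time point was fitted alone, without replicate 3 of SS at that time and without replicate 2 of MMTT (-0.58). In the samples of 8 h 30 min it had 26.7, 33.2 and 27.6 CPM in MMTT and 52.2, 60.5 and 52.6 CPM in SS (-0.92 ± 0.26, adjusted p = 0.0045), and this call held whichever library was left out. RPA49 was higher in MMTT, without a call, at 0 h (0.69 ± 0.31), 2 h 30 min (0.56 ± 0.31) and 3 h 50 min (0.19 ± 0.27). RPA34, its partner, differed most late in the series. It had 43.3, 38.4 and 39.1 CPM in MMTT at 8 h 30 min, against 81.7, 79.0 and 81.9 CPM in SS. Both groups were tight and far apart (-1.01 ± 0.24, adjusted p = 0.00066). The calls of RPA34 at 1 h 10 min (-0.65 ± 0.25, adjusted p = 0.039) and 5 h 40 min (-0.81 ± 0.28, adjusted p = 0.033) were near the threshold, and leaving out single libraries ended each of them.

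Of the stalk, RPA43 was lower in MMTT and RPA14 was not called at any time. RPA43 had 10.2 and 10.1 CPM in MMTT at 45 min, from 16 and 54 reads, against 20.2, 31.9 and 37.7 CPM in SS. This was the largest difference between the strains among the 72 tests, with a log2 fold change of -1.56 ± 0.30 (adjusted p = 0.00021). At 1 h 10 min the values were 11.9, 12.3 and 7.22 CPM in MMTT and 20.6, 20.6 and 26.4 CPM in SS (-1.11 ± 0.25, adjusted p = 0.00077). RPA43 was called at 30 min (-0.81 ± 0.27) and 5 h 40 min (-0.90 ± 0.27) as well, but not at 8 h 30 min, where 44.6, 29.7 and 33.0 CPM in MMTT overlapped with 52.2, 49.999 and 38.0 CPM in SS. RPA43 shares its upstream DNA with RPA190, and both were called at 45 min, again at 1 h 10 min, and once more at 5 h 40 min. RPA49, which lies on another chromosome, was called at each of these times too. The pair differed at 30 min, where RPA190 was not called (adjusted p = 0.056). It also differed at 8 h 30 min, where RPA43 was not called (adjusted p = 0.17). Whether the shared DNA plays a part was not tested. RPA14 had log2 fold changes between -0.51 (0 h) and -0.06 (30 min), all negative and none called, with the caveat of its overlapping reading frame.

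RPA12, which encodes the cleavage subunit, was the member with the fewest reads and was called only at 8 h 30 min. There it had 10.1, 12.5 and 7.74 CPM in MMTT, against 17.5, 19.6 and 23.5 CPM in SS (log2 fold change -1.003 ± 0.38, adjusted p = 0.030). The groups did not overlap, but leaving out any 1 of 4 libraries at that time ended the call. RRN3 differed at the start and the end of the series. It had 103, 112 and 122 CPM in MMTT at 0 h, against 181 and 206 CPM in SS (-0.78 ± 0.18, adjusted p = 0.0030). From 30 min to 3 h 50 min it was not called. At 5 h 40 min it had 79.3 and 58.9 CPM in MMTT and 102, 136 and 119 CPM in SS (-0.78 ± 0.19, adjusted p = 0.0033). Later, at 8 h 30 min, it had 61.5, 51.3 and 62.3 CPM in MMTT and 101, 120 and 113 CPM in SS (-0.93 ± 0.17, adjusted p = 2.0e-05), the smallest p of the 72 tests.

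The next comparison followed each strain from its own 0 h. In MMTT 4 of the subunit genes (RPA135, RPA49, RPA43 and RPA34) were called lower at 2 to 4 times each up to 1 h 40 min. From 2 h 30 min on these 4 were not called, and in this fit no member was called higher than at 0 h. At 30 min 4 of the 8 genes were called lower, beside 18.9% of all genes tested in MMTT, at 45 min 3 of 8 (13.8%), at 1 h 10 min 4 of 8 (16.8%) and at 1 h 40 min 5 of 8 (16.0%). At 2 h 30 min 1 of 8 was called (17.6% of all genes), at 3 h 50 min 0 were (18.7%), at 5 h 40 min a count of 2 (17.0%), and in the last samples 1 (21.9%). At 3 h 50 min 1 of the 8 had an unadjusted p under 0.05, and DESeq2 called 0. These later calls were RRN3 at each of these times but 3 h 50 min, with RPA14 at 5 h 40 min. The counts of lower calls were smaller without single libraries. They were 1 at 30 min without replicate 1 or 2 of that time or replicate 3 of 0 h, 2 at 30 min without replicate 1 of 0 h, 2 at 1 h 40 min without replicate 3 of 0 h, 3 at 1 h 40 min without replicate 1 or 3 of that time, 0 at 2 h 30 min without replicate 1 of that time, and 1 at 5 h 40 min without replicate 1 or 2 of that time or replicate 3 of 0 h. RRN3 was called lower at 3 h 50 min without replicate 1 or 3 of 45 min. Calls in the other direction appeared for RPA12 and RPA43. Without replicate 3 of MMTT at 0 h RPA12 was called higher at 30 min, at 2 h 30 min and at each later time, and it was called higher at 3 h 50 min without replicate 1 of that time. RPA43 stood at 0.60 in the last samples (adjusted p = 0.056) and was called higher there with library totals, with no filter, with 1 fit over both strains, and without replicate 3 of 0 h, replicate 3 of 1 h 10 min, replicate 2 of 3 h 50 min, replicate 1 or 3 of 45 min or replicate 2 of its own time.

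RPA49 fell furthest in MMTT. It had 10.4, 9.62 and 16.7 CPM at 30 min, against 29.8, 23.2 and 39.4 CPM at 0 h, a log2 fold change of -1.30 ± 0.28 (adjusted p = 0.0011). It reached -1.89 ± 0.34 at 45 min and was still at -1.54 ± 0.28 at 1 h 40 min, with 12.7, 10.4 and 9.27 CPM, and all 4 of these calls held whichever library was left out. By 2 h 30 min it had 28.7 and 22.4 CPM and was no longer called. RPA43 fell next, with 10.2 and 10.1 CPM at 45 min against 23.5, 18.1 and 29.3 CPM at 0 h (-1.24 ± 0.31, adjusted p = 0.0054), and was called from 30 min to 1 h 40 min. RPA135 was called lower at 30 min, 1 h 10 min (-0.94 ± 0.21) and 1 h 40 min, and RPA34 at 1 h 10 min (-0.80 ± 0.22) and 1 h 40 min (-0.78 ± 0.22). RPA190 was not called at any time, with values down to -0.62 at 1 h 10 min. RPA12 was not called either, at 0.35 to 0.90.

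In SS none of these 4 genes was called lower at any time, and all 4 were called higher at 8 h 30 min. The 0 h group of SS has 2 libraries, and 15 of the 64 tests were called without replicate 3 of it, against 32 with it, so each count for SS rests in part on that library. At 30 min 2 of 8 genes were called higher, beside 12.3% of all genes tested in SS, and 2 lower (10.9%). At 45 min 2 were higher (16.8%) and 2 lower (17.1%), at 1 h 10 min 1 was higher (18%) and 1 lower (18.1%), at 1 h 40 min 1 was higher (15.2%) and 2 lower (15.4%), and at 2 h 30 min 1 was higher (17.9%) and 2 lower (17.1%). At 3 h 50 min 2 were lower (17.7%). At 5 h 40 min 5 of 8 were higher (20.6%) and 2 lower (17.1%), and at 8 h 30 min 6 were higher (22.2%) and 1 lower (20.1%). Without replicate 3 of SS at 0 h, RRN3 was the 1 gene called lower at each time, and 2 were called higher at 5 h 40 min, 4 in the last samples, 1 at 45 min and 0 at the other times. Without replicate 2 of SS at 30 min, 0 were called higher and 1 lower at 30 min, and without replicate 3 at 5 h 40 min 3 were called higher there. RPA12 was called higher at 3 h 50 min too without replicate 1 or 2 of that time or of 5 h 40 min.

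The late rise in SS covered the core, the heterodimer and 1 of the stalk genes. At 8 h 30 min RPA34 had 81.7, 79.0 and 81.9 CPM, against 32.3 and 22.6 CPM at 0 h (log2 fold change 1.56 ± 0.30, adjusted p = 0.00021). RPA49 had 52.2, 60.5 and 52.6 CPM against 23.2 and 15 CPM (1.53 ± 0.31, adjusted p = 0.00036), and RPA135 had 109, 141 and 99.0 CPM against 51.6 and 44.1 CPM (1.29 ± 0.21, adjusted p = 3.9e-05). These 3 calls held without either library of 0 h. RPA43 (0.93 ± 0.26) and RPA190 (0.60 ± 0.23) were called too, and both calls ended without replicate 3 of 0 h. RPA135 was the only one of these 5 called higher early, at 30 min (0.73 ± 0.23) and 45 min (0.78 ± 0.21), and these calls also ended without that library.

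RPA12 and RRN3 moved at once in SS and in opposite directions. RPA12 had 11.8 and 9.23 CPM at 30 min, against 4.58 and 3.6 CPM at 0 h, and was called higher at 7 of the 8 later time points. The calls at 45 min and from 5 h 40 min on held whichever library was left out, and the others ended without replicate 3 of 0 h. Its largest change was 2.30 ± 0.40 at 8 h 30 min (adjusted p = 6.3e-05), against a 0 h level of 15 and 11 reads. RRN3 fell to 87.3 and 99.5 CPM at 30 min, against 181 and 206 CPM at 0 h (-1.06 ± 0.18, adjusted p = 0.00011). It was lowest against 0 h at 45 min (-1.33 ± 0.16, adjusted p = 9.0e-07) and stayed lower at all 8 later time points, in every fit with 1 library left out. RPA14 fell beside it, to 31.3 and 32.9 CPM at 30 min against 51.2 and 59.8 CPM at 0 h (-0.80 ± 0.25), and was called lower at 6 of 8 later times, and each of these calls ended without replicate 3 of 0 h. RRN3 was the 1 gene of the 8 that was called lower than 0 h at most later times in both strains, 6 of 8 in MMTT and 8 of 8 in SS. In MMTT 5 of these 6 calls ended when single libraries were left out, and the call at 8 h 30 min held.

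**Figure D4:**
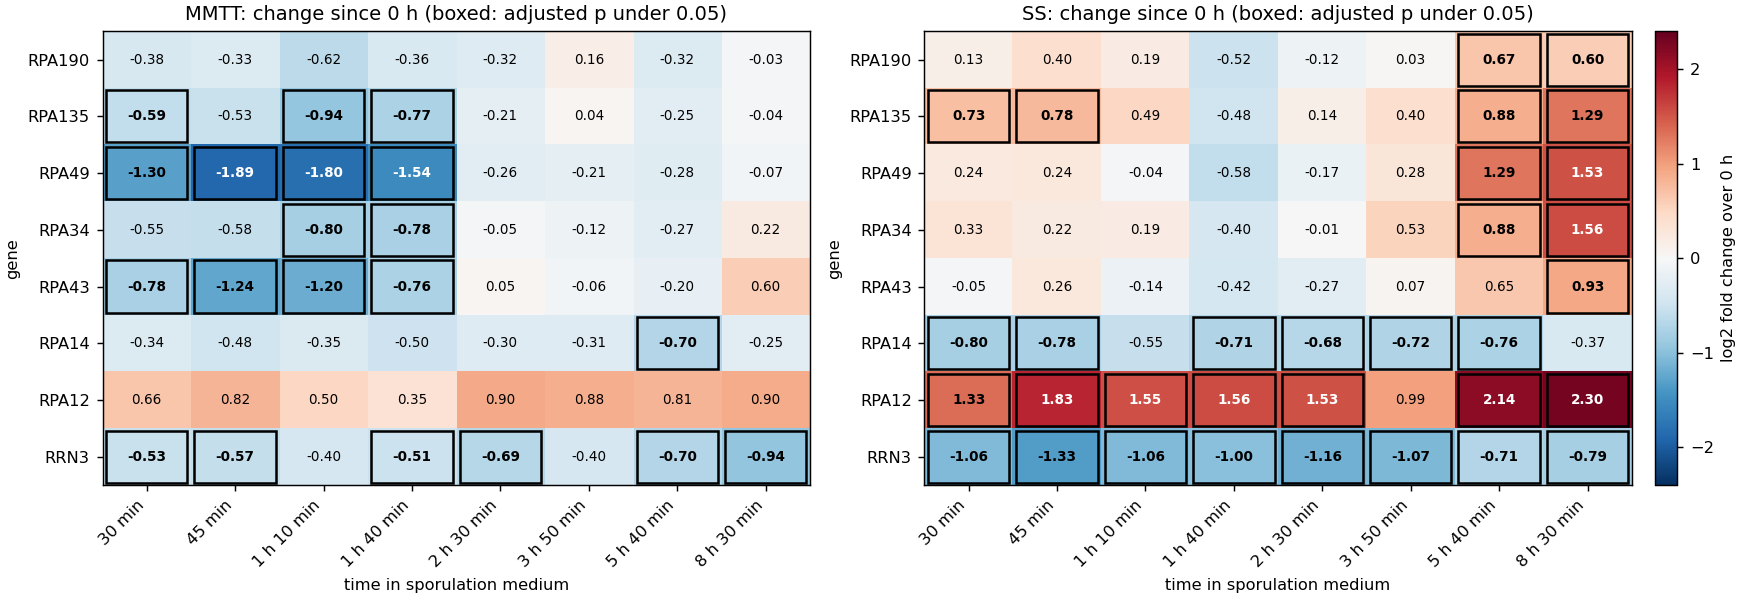
Log2 fold change over 0 h for each gene (rows) at the 8 later time points (columns) in MMTT (left) and SS (right), with a box around values with an adjusted p under 0.05. In MMTT the boxed values are all negative and reach -1.89 for RPA49 at 45 min, and in SS they include the late rises of RPA34 (1.56) and RPA49 (1.53), RPA12 up to 2.30 and RRN3 down to -1.33.

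The steps between time points given next were picked after the values were seen and were not tested. In SS 4 of the 8 genes (RPA190, RPA135, RPA43 and RPA34) had all 3 libraries at 1 h 40 min below all 3 at 1 h 10 min, as did 15.4% of all genes. RPA135 had 33.0, 35.7 and 33.8 CPM at 1 h 40 min, against 53.5, 69.5 and 80.1 CPM at 1 h 10 min. In MMTT 5 genes (the same 4 and RPA49) had all libraries at 3 h 50 min above all at 1 h 40 min (17.7% of all genes), RPA49 with 19.4, 26.9 and 34.4 CPM against 12.7, 10.4 and 9.27 CPM. In SS 7 of 8, all but RRN3, had all libraries at 8 h 30 min above all at 3 h 50 min (11.9% of all genes). In MMTT the mean sum of the 8 genes stayed between 249 and 266 CPM from 30 min to 1 h 40 min, and in SS its lowest mean was 281 ± 6.52 CPM at 1 h 40 min (SD, n = 3). In the last samples it was 344 ± 22.0 CPM in MMTT and 590 ± 58.2 CPM in SS (SD, n = 3 each).

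Whether the changes since 0 h differed between the strains was tested directly. The change in MMTT minus the change in SS was called for RPA135 and RPA49 at 5 of the 8 later time points each, and always in the negative direction. For RPA49 it was -1.56 ± 0.44 at 30 min, -2.11 ± 0.47 at 45 min (adjusted p = 0.0032), -1.76 ± 0.43 at 1 h 10 min, -1.57 ± 0.44 at 5 h 40 min, with -1.60 ± 0.41 in the last samples. For RPA135 it was -1.34 ± 0.31, -1.32 ± 0.32, -1.42 ± 0.30 (adjusted p = 0.0014), -1.12 ± 0.32 and -1.32 ± 0.30 at these times. RPA43 was called at 45 min (-1.50 ± 0.40, adjusted p = 0.016) and RPA34 at 8 h 30 min (-1.34 ± 0.37, adjusted p = 0.0070). RPA190, RPA14, RPA12 and RRN3 were not called at any time in this fit. RRN3 had positive values, with 0.77 ± 0.26 at 45 min (adjusted p = 0.061) and 0.67 ± 0.24 at 1 h 10 min (adjusted p = 0.070), and both were called with DESeq2 and with DESeq2's size factors in edgeR. The value at 45 min was also called in many of the fits with 1 library left out. For RPA190 the difference of the changes had its lowest value, -0.995, at 5 h 40 min.

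By time point, 2 of the 8 genes had a called difference of the changes at 30 min, beside 4.76% of all genes in the same direction, 3 at 45 min (4.33%), 2 at 1 h 10 min (5.59%), 2 at 5 h 40 min (3.32%), with 3 in the last samples, at 8 h 30 min (10.6%). The count was 0 at 1 h 40 min (2.12%), likewise at 2 h 30 min (2.34%) and also at 3 h 50 min (1.36%), with 2, 0 and 1 of the 8 at an unadjusted p under 0.05 at these times and 0 called by DESeq2. This comparison takes in the 0 h level of both strains, and without replicate 3 of SS at 0 h 4 of the 64 tests were called, against 12 with it. The 4 were RPA135 at 30 min, 1 h 10 min and 8 h 30 min and RPA49 at 45 min. Without replicate 2 of MMTT or replicate 3 of SS at 5 h 40 min, or replicate 3 of MMTT at 0 h, 0 of 8 were called at 5 h 40 min. At 30 min 1 of 8 was called without replicate 1 or 2 of MMTT or replicate 2 of SS at that time, or replicate 3 of MMTT at 0 h. Without replicate 1 of MMTT or replicate 2 of SS at 0 h 1 was called at 5 h 40 min. At 1 h 10 min 4 were called lower and RRN3 higher without replicate 1 of SS at 3 h 50 min, and RRN3 was called higher without replicate 1 or 3 of MMTT at 45 min. In the joint test of all 8 differences, with a threshold of 0.001, RPA135 (adjusted p = 0.000101) and RPA49 (adjusted p = 0.00039) were called, beside 14.8% of all genes. The adjusted p was 0.0053 for RPA43, 0.0087 for RRN3, 0.024 for RPA34, 0.034 for RPA190, 0.29 for RPA12 and 0.87 for RPA14. RRN3 was called as well with DESeq2 and without replicate 1 of MMTT at 45 min. The call of RPA49 was lost without replicate 3 of SS at 0 h and without replicate 1 of MMTT at 2 h 30 min.

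Over the 49 libraries 5 of the genes varied together, and the other 3 followed them less closely. The points of these correlations share strain and time, so they are given as a description. RPA190, RPA135, RPA49, RPA43 and RPA34 correlated with one another at Pearson r of 0.59 to 0.87 in log2 CPM, the highest being RPA49 with RPA43. RPA49 with its partner RPA34 gave 0.78 and RPA190 with RPA135 0.79. RPA43 with its stalk partner RPA14 gave 0.27. RPA14, whose counts are uncertain, was closest to RRN3 (0.58), near the lowest value within the 5. RPA12, the member with the fewest reads, reached at most 0.45, with RPA135. The 5 genes correlated with the mean of the other 7 at 0.77 to 0.83, and RPA14, RPA12 and RRN3 at 0.29 to 0.33. The genes outside the set with the course most like the mean of the 8, over the 49 libraries, were NOP4 (r = 0.93), ENP1 (0.93), UTP21 (0.92), MRD1 (0.92), PWP1 (0.91), RRB1 (0.91), RRP5 (0.91), NOP15 (0.91), NSR1 (0.91) and TRM10 (0.90).

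The subunits that the enzyme shares with other polymerases had calls higher in MMTT at 30 min and calls lower at 8 h 30 min. RNA polymerase I shares RPC40 and RPC19 with RNA polymerase III, and RPB5, RPO26, RPB8, RPB10 and RPC10 with both other polymerases. At 30 min 3 of these 7 were called higher in MMTT than in SS, where 18.1% of all genes were, and 0 lower: RPC10 (1.25), RPB8 (0.88) and RPO26 (0.87). Their median log2 fold change was 0.58, against -0.60 for the 8 genes and -0.02 for all genes. At 1 h 10 min 1 was higher (RPC10, 1.13, beside 18.4% of all genes) and 1 lower (RPC40, -0.55, beside 18%). At 8 h 30 min 4 of 7 were lower, beside 21.9% of all genes, and 0 higher, with a median of -0.63. RPB10 had the lowest value there (-1.09, called) and RPC10 the highest (0.30, not called).

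The subunits particular to RNA polymerase II, which makes mRNA, had 3 of 7 called higher at 30 min (RPB9, RPB4 and RPB7), beside 18.1% of all genes, and 1 lower (RPO21, the largest subunit, -1.50), beside 21.8%. At 1 h 10 min 2 were higher (18.4% of all genes) and 0 lower. At 8 h 30 min RPB7 was higher (0.38), RPB2 lower (-0.42) and the highest value was that of RPB11 (0.48, not called), beside 20.3% of all genes higher and 21.9% lower. Of the 10 subunits particular to RNA polymerase III, which makes transfer RNA, 2 were lower at 30 min (21.8% of all genes), 3 were at 1 h 10 min (18%), 4 were lower by 8 h 30 min (21.9%), and 0 were higher at these times. RPC37 had the lowest value at 8 h 30 min (-1.24) and RPO31 the highest (-0.03, not called). RPC37 was called lower at 8 of the 9 time points. MAF1, the repressor of RNA polymerase III, was called at 0 of the 9.

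Among the 9 genes of the factors that place RNA polymerase I on its promoter, 2 were lower in MMTT at 30 min (RRN11 and RRN6 of the core factor), 2 at 1 h 10 min (RRN11 and RRN7, also of the core factor) and 2 at 8 h 30 min (RRN7, -1.03, and HMO1, a protein of active ribosomal DNA, -0.56). Of all genes 21.8%, 18% and 21.9% were lower at these times, near the share of this list. RRN5 of the upstream activating factor went the other way at 8 h 30 min (1.19, called). Their median stayed between -0.38 and 0.10. Of the 4 regulators of ribosome synthesis genes, 3 were lower in MMTT at 30 min, beside 21.8% of all genes: DOT6 (-1.56), STB3 (-1.44) and SFP1 (-0.94), while TOD6 was not called at any time (0.11 at 30 min). SFP1 encodes an activator and the other 3 repressors of such genes. In the last samples only SFP1 was called (-0.53), beside 21.9% of all genes lower.

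**Figure D5:**
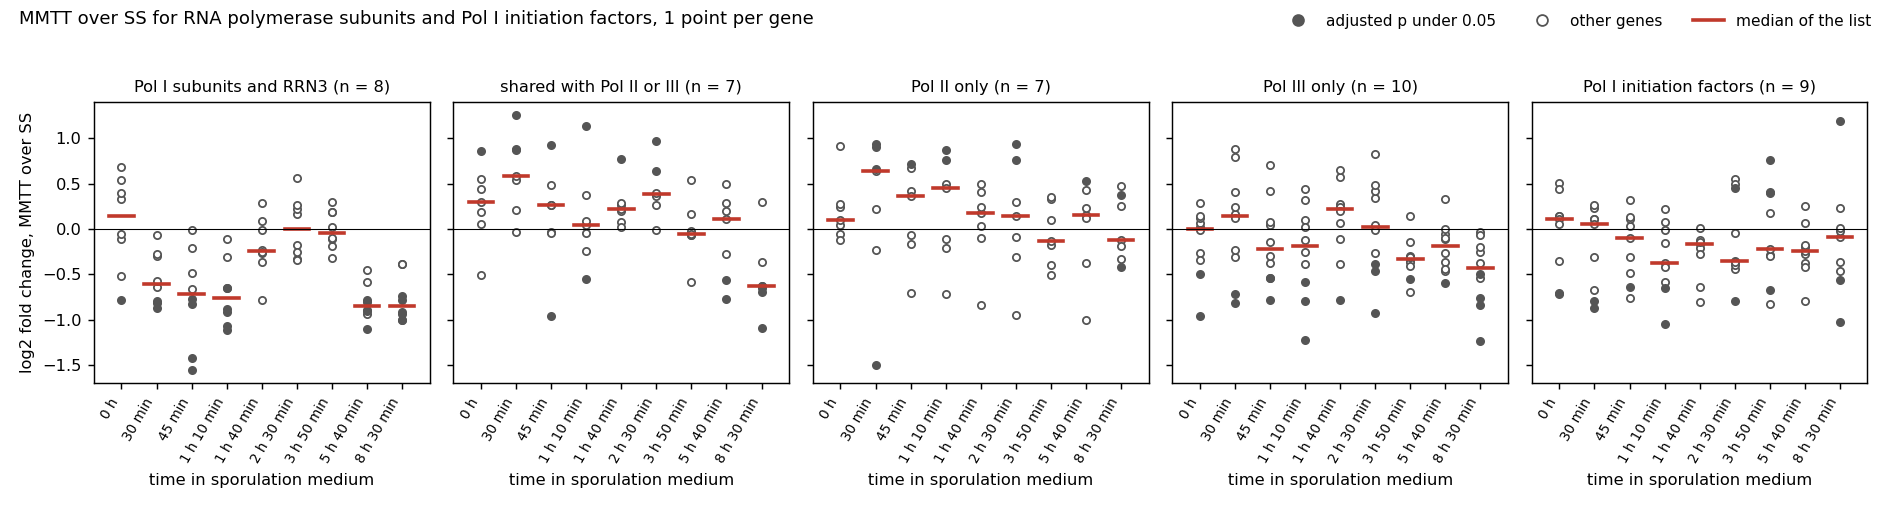
Log2 fold change of MMTT over SS at the 9 time points, 1 point per gene, for the 8 genes described here, the 7 shared subunits, the 7 and 10 subunits particular to RNA polymerases II and III, and 9 initiation factors of RNA polymerase I. Filled points have an adjusted p under 0.05 and red bars are medians: at 30 min the median is -0.60 for the 8 genes and 0.58 for the shared subunits, and at 8 h 30 min -0.85 and -0.63.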

How the data were processed

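The data are counts of RNA sequencing reads per gene in 54 libraries, 3 replicates of MMTT and SS at 9 time points. Per the study's methods, strand-specific libraries (NEBNext Ultra II Directional) were sequenced in pairs on a NovaSeq instrument, reads from ribosomal RNA were removed, and STAR was used to align the rest to the genome of S288c, and reads on each gene were counted. Versions, annotation and strand setting are not given in the sources used here. The authors deposited the counts without normalization, as whole numbers for 6571 genes, and the RefSeq R64 annotation, which gave names and sequences, holds 5906 of them. Libraries were grouped by their labels.

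The main set is the 49 libraries that remained after the study removed 5 as outliers by clustering of these data. Its text does not name the 5, and they were taken to be the ones absent from the colour bars of its clustering heatmap. Those 5 have totals from 159701 to 4567237, 3 of them below every library kept. Comparisons between the strains used the 6031 genes that reached 3 CPM in 3 or more libraries, and those within a strain the genes that reached 0.5 CPM in 3 or more of its libraries (6419 in MMTT and 6350 in SS). Library sizes were scaled by TMM. Each model gave every group its own mean, over all 18 groups between the strains and over 9 within a strain. Groups of 2 libraries, or of 1 when a library was left out, borrow the spread of the other groups. edgeR's robust quasi-likelihood test was used, with p-values adjusted over every gene tested by Benjamini-Hochberg, and a call means an adjusted p under 0.05, with no threshold on the fold (0.001 for the joint test of the 8 strain by time terms). Standard errors are the absolute log2 fold change over the square root of F and are approximate. CPM and RPKM were computed from the counts, with TMM factors for the 8 genes and without them for the marker and mating type genes. The tests were tested on simulated data. R 4.3.3, edgeR 4.0.16, limma 3.58.1, DESeq2 1.42.0, Python 3.11.15, pandas 2.3.3, numpy 2.4.6, matplotlib 3.10.9 and blastn 2.17.0 (copies of at least 90% identity over at least 100 bases) were used.

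The members, the gene lists and the motifs were chosen with earlier results of these data known. All 8 members are named. Of each list, the text names the genes with the highest and lowest value at 8 h 30 min and those called against most of the list, and, chosen after their values were seen, further genes called at 30 min, 1 h 10 min or 8 h 30 min. The 10 genes most alike are those with the highest Pearson correlation with the mean z-score of log2 CPM (prior count 2) of the 8. Alternatives were all 54 libraries, other scalings, no filter, DESeq2, the replicate number as a block, each library left out, fold thresholds, 1 fit over both strains and each time point alone. Over 44 pairs of replicates chi-square per degree of freedom was at least 4.85, so each was counted as a separate library.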

Additional observations from a re-analysis of the deposited data

Results flagged for a closer look

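The change since 0 h differed between the strains by a test of the difference itself for 4 of the 8 genes. In the joint test over the 8 later time points, the adjusted p was 0.000101 for RPA135 and 0.00039 for RPA49 (edgeR's quasi-likelihood test). Of all genes 14.8% were called in that test. The change in MMTT minus the change in SS, on the log2 scale, was -1.34 for RPA135 and -1.56 for RPA49 at 30 min, and -1.32 for RPA135, -2.11 for RPA49 and -1.50 for RPA43 at 45 min. At 1 h 10 min it was -1.42 for RPA135 and -1.76 for RPA49, and at 5 h 40 min -1.12 for RPA135 and -1.57 for RPA49. At 8 h 30 min it was -1.32 for RPA135, -1.60 for RPA49 and -1.34 for RPA34. Of all genes, 4.76%, 4.33%, 5.59%, 3.32% and 10.6% were called in this direction at these times in turn. The calls of RPA43 and RPA34 and the joint call of RPA49 ended without replicate 3 of SS at 0 h. Without it the calls of RPA49 also ended at every time listed here but 45 min. Those of RPA135 ended at 45 min and 5 h 40 min. No group holds more than 3 libraries, so single libraries were not tested for standing apart from their group.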

How the results depend on the processing

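Of the 72 tests of MMTT against SS, 24 were called, and 22 to 24 with all 54 libraries, other scalings, no filter, DESeq2 or the replicate block. When each time point was fitted alone 15 were called. With an absolute log2 fold change over 1 as well 7 were called, and with over 2, 0. For MMTT against its own 0 h, 20 of 64 were called, 6 with a log2 fold change over 1 and 0 over 2, and for SS 32, 16 over 1 and 2 over 2. For the difference of the changes 12 of 64 were called, and 1 over 2. In the joint test 2 of 8 were called, 1 with all 54 libraries and 6 at an adjusted p under 0.05.

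With 1 library left out at a time, the counts ranged from 19 to 27 between the strains, from 17 to 26 in MMTT, from 15 to 35 in SS, from 4 to 17 for the difference of the changes and from 1 to 3 in the joint test. The lowest counts in SS and for the difference of the changes came without replicate 3 of SS at 0 h. Of the calls, 9 of 24 between the strains, 9 of 20 in MMTT, 15 of 32 in SS and 4 of 12 differences of the changes were kept in every such fit. No call turned its direction under any of these alternatives.

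On average, equal replicate numbers did not mark libraries that deviate together: the mean correlation of deviations from group means was 0.04 in MMTT, -0.02 in SS and -0.07 across the strains. Single pairs of equal number ranged from -0.43 to 0.74 in MMTT and from -0.39 to 0.52 in SS. Pairs of unequal number ranged from -0.74 to 0.64 in MMTT and from -0.61 to 0.53 in SS. The libraries were therefore treated as unpaired. With the replicate block 23 of 72 tests were called between the strains, 21 of 64 in MMTT, 33 of 64 in SS, 12 of 64 differences and 2 of 8 in the joint test.

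Depth limits the genes with few reads most. RPA12 had 8 to 31 reads in MMTT and 11 and 15 in SS at 0 h, so its changes since 0 h rest on small counts. With library totals in place of TMM factors the median of all genes moved furthest, to 0.23, in SS at 8 h 30 min against 0 h.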
